A study of Gallus gallus with 12 samples.

Results

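TF, TFRC, FTH1, SLC40A1, CP and ACO1, which carry, take up, store, export, oxidize and sense iron, were followed in the liver and the abdominal fat of chickens fed a high-fat diet (HFD) or a normal diet (ND). The genes were found by their symbol in all 12 samples, where all 6 were listed among 18332 genes, and all 6 passed the filter on low values in every comparison. They were chosen by their role with earlier results of these data known, among them the TF levels of the HFD and ND fat samples. Their own diet and tissue differences are therefore given as descriptions with standard errors, and the counts of calls among them are set beside those over all genes and support nothing. The groups were HFD liver, ND liver, HFD abdominal fat and ND abdominal fat, with 3 samples each. The paper describes both tissues as collected from 3 chickens of each diet. All birds were Xinghua chickens with the dw gene, a dwarf type whose growth hormone receptor gene is mutated. They were female and 8 weeks old when the diets began, and received feed with 25% fat (HFD) or 5% fat (ND) for 2 weeks. The HFD birds with the higher and the ND birds with the lower abdominal fat rate were chosen for sequencing, so diet and this selection cannot be told apart. Each value is an FPKM, fragments scaled to transcript length and to the mapped fragments of the library, so that genes can be compared per length.

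Iron travels in blood bound to transferrin (TF), which the liver secretes and which in birds is also the ovotransferrin of egg white. The transferrin receptor (TFRC) takes it into cells, the ferritin heavy chain (FTH1) oxidizes it and builds the shell that stores it, and ferroportin (SLC40A1) lets it out again. Ceruloplasmin (CP), a copper enzyme of plasma, oxidizes the exported iron so that TF can bind it. The protein of ACO1 is a cytosolic aconitase with an iron-sulfur cluster. In mammals, where it loses this cluster it becomes iron regulatory protein 1, which binds stem-loops in mRNA, holds back ferritin translation and stabilizes TFRC mRNA.

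The tissues carried their own markers. The summed FPKM of a list of 13 liver genes was 84431 to 119972 in the livers, and that of 8 fat genes was 13864 to 17467 in abdominal fat, against 164 to 324 in the livers. In abdominal fat the liver list summed to 11.7 to 105 FPKM in HFD birds, and to 60.4 and 125 FPKM in ND replicates 1 and 3. It summed to 4368 FPKM in ND replicate 2, which stands apart. In HFD replicate 2, AHSG, AMBP, APOB and FGA of this list were at 0. The detected genes, at 1 FPKM or more, numbered 10799 to 11270 per liver and 12221 to 12492 per fat sample. FPKM values hold no counts, so the depth behind them is unknown. As these are bulk samples, fewer cells of a type and less RNA per cell cannot be told apart.

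The liver had far more TF and CP and more ACO1 than abdominal fat, on both diets. TF, the iron carrier, averaged 4804 ± 1098 FPKM in HFD liver and 110.1 ± 49.1 FPKM in HFD fat (SD, n = 3 each), a ratio of 43.6. On ND it averaged 6427 ± 2292 FPKM in liver and 373 ± 103 FPKM in fat, a ratio of 17.2, or 20.3 without ND fat replicate 2. CP averaged 109.1 ± 24.97 FPKM in HFD liver and 4.86 ± 1.28 FPKM in HFD fat, and 51.9 ± 14.7 FPKM in ND liver and 5.74 ± 1.61 FPKM in ND fat. ACO1 averaged 100.9 ± 9.53 FPKM in HFD liver and 26.8 ± 0.86 FPKM in HFD fat, and 109.9 ± 10.8 FPKM in ND liver and 32.3 ± 5.54 FPKM in ND fat. For these 3 genes every liver was above every fat sample of the same diet. With FTH1 in HFD birds and SLC40A1 in ND birds, which were lower in every liver, 4 of the 6 genes did not overlap on either diet, where 74.6% of all genes in HFD birds (16.5% higher and 58.1% lower in liver) and 74.1% in ND birds (14.4% higher and 59.6% lower) did not overlap.

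The exporter and the storage protein did not follow this pattern. SLC40A1 averaged 54.5 ± 11.9 FPKM in HFD liver and 78.4 ± 12.95 FPKM in HFD fat, where the liver with 63.9 FPKM lay just above the fat sample with 63.6 FPKM. In ND birds it averaged 35.3 ± 5.64 FPKM in liver and 80.7 ± 10.1 FPKM in fat, without overlap. FTH1 averaged 4712 ± 732 FPKM in HFD liver, below all HFD fat samples at 8200 ± 304 FPKM. In ND birds its 6581 ± 1121 FPKM in liver and 7709 ± 1106 FPKM in fat overlapped. FTH1 was the second most abundant of 18332 genes in abdominal fat on both diets by its mean, and number 14 in HFD liver and number 10 in ND liver. TFRC, the receptor, averaged 7.67 ± 0.98 FPKM in HFD liver and 8.70 ± 0.72 FPKM in HFD fat, and 10.8 ± 1.48 FPKM in ND liver and 10.01 ± 1.97 FPKM in ND fat, with overlap on both diets.

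**Figure D1:**
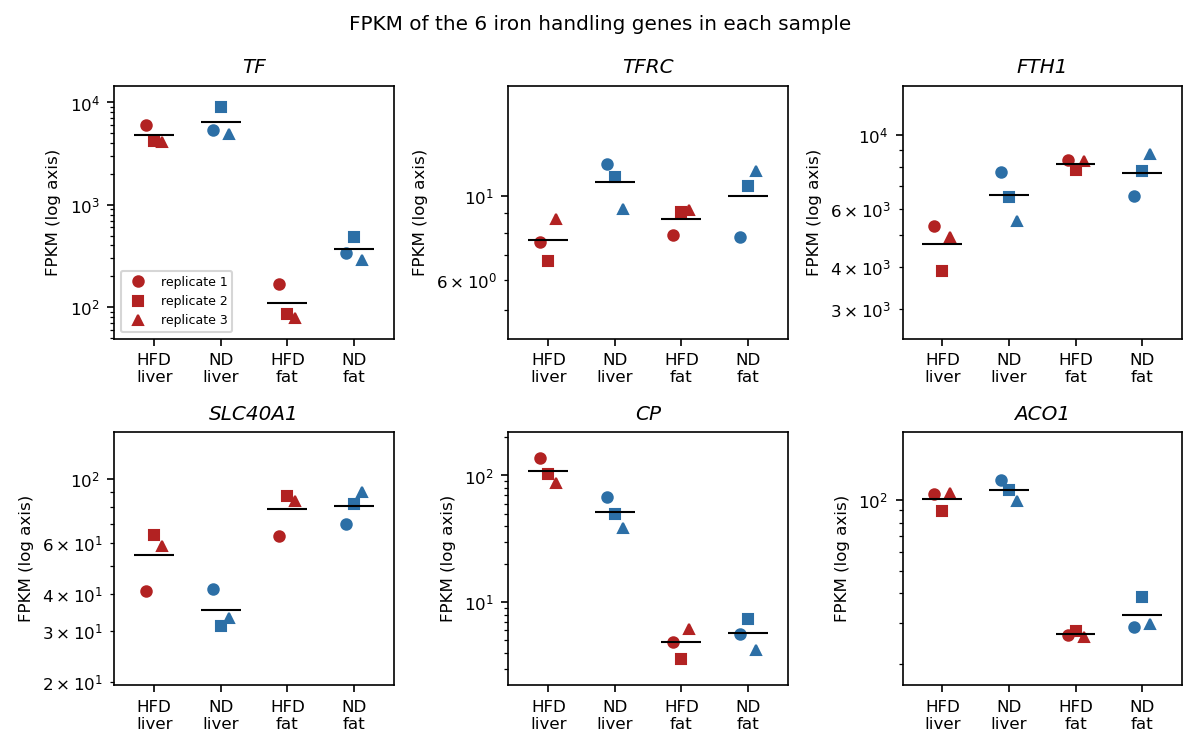
FPKM of each gene on a log axis in HFD liver, ND liver, HFD abdominal fat and ND abdominal fat, with red points for HFD, blue points for ND, a marker shape for the replicate number and a line at the mean of 3 samples. TF, CP and ACO1 were higher in every liver than in every fat sample, TF was lower in all HFD fat samples than in all ND fat samples, and CP was higher in all HFD livers than in all ND livers.

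In the test across all genes (limma, liver minus fat), an adjusted p no greater than 0.05, here a call, was reached in HFD birds by 5 of the 6 genes, 3 higher and 2 lower in liver, where 69.5% of all genes tested were called. In ND birds 4 were called, 3 higher and 1 lower in liver, where 68.6% of all genes were called. The lower genes were FTH1 and SLC40A1 in HFD birds and SLC40A1 in ND birds. Since most genes were lower in liver FPKM, the median log2 difference of all genes was -0.47 in HFD and -0.58 in ND birds. The log2 difference of SLC40A1 in HFD birds, -0.53 (standard error 0.20), was close to that median. Its call was lost with quantile normalization, with no filter on low values, and without HFD fat replicate 2, HFD fat replicate 3, HFD liver replicate 1 or HFD liver replicate 3. TFRC was not called, at log2 differences of -0.17 (standard error 0.12) in HFD and 0.11 (0.18) in ND birds. With each sample scaled to the same FPKM sum it was called lower in liver in HFD birds (-0.39), whereas quantile normalization, which removes the median shift, gave calls of higher in liver on both diets (0.49 and 0.89). Under quantile normalization FTH1 was called lower in liver on both diets, at -2.23 in HFD and -1.91 in ND birds. Without it the differences were -0.81 (standard error 0.14) and -0.23 (0.40). Quantile normalization sets values by rank, and FTH1 was number 2 in fat and number 14 and 10 in liver. Its values then depend on the few most abundant genes, and its diet difference in fat became 0.0. These FTH1 calls are therefore not read as a result about its level.

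The order of the levels within a sample group differed between the tissues. In HFD liver TF and FTH1 led with overlapping samples, followed by CP and ACO1, which also overlapped, then SLC40A1 and TFRC. In ND liver FTH1 and TF led with overlapping samples, and ACO1 came before CP and SLC40A1, which overlapped, with TFRC last. In abdominal fat of both diets the order was FTH1, TF, SLC40A1, ACO1, TFRC and CP, and only TF and SLC40A1 in HFD fat overlapped among neighbours.

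In abdominal fat, TF showed the diet difference. It had 167, 84.8 and 78.9 FPKM in HFD replicates 1, 2 and 3, against 341, 489 and 291 FPKM in the ND replicates. All HFD samples were below all ND samples, with HFD replicate 1 the highest of its diet and ND replicate 2 the highest of all. The mean in HFD was 0.29 times that in ND, and the log2 difference, HFD minus ND on log2(FPKM + 1), was -1.80 (standard error 0.33). Without ND replicate 2, the ND mean was 316 FPKM, the ratio was 0.35 and the log2 difference was -1.59 (standard error 0.34). The diets again did not overlap.

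ND fat replicate 2 carried liver transcripts, and TF, by its mean number 12 of all genes in HFD liver and number 11 in ND liver, is among the most abundant of these. ALB, the serum albumin made by liver, was at 23.2, 0.86 and 38.9 FPKM in HFD fat and at 22.4, 2887 and 70.0 FPKM in ND fat, where 2887 FPKM is 4.58% of its mean in ND liver. Liver RNA in that proportion would bring 294 FPKM of TF, or 60.2% of the 489 FPKM measured in that sample, which leaves 194 FPKM. In the other 5 fat samples the same calculation gave 0.06 to 7.13 FPKM of TF, at most 3.56% of the measured value. So HFD fat held 165, 84.7 and 76.1 FPKM of TF beyond the ALB-proportional part, against 338 and 284 FPKM in ND replicates 1 and 3. With the proportion taken from each of the 13 liver markers in turn, 2.93% to 6.31%, the remainder in ND replicate 2 was 83.4 to 300.2 FPKM with a median of 222 FPKM. For the markers FGB, APOB and FGG it was 163, 109.5 and 83.4 FPKM, which is below HFD replicate 1. The remainder depends on the liver taken as the source. With ND liver replicate 2 in place of the mean ND liver, an alternative added after seeing the data, the ALB-proportional TF was 595 FPKM, more than was measured. Over the 13 markers the remainder was then -407 to 259 FPKM, with 4 below 0, so how much TF beyond liver RNA this sample held was not settled. In the other 5 fat samples the liver of the same number left 45.5 to 165 FPKM in HFD fat and 282 to 339 FPKM in ND fat.

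**Figure D2:**
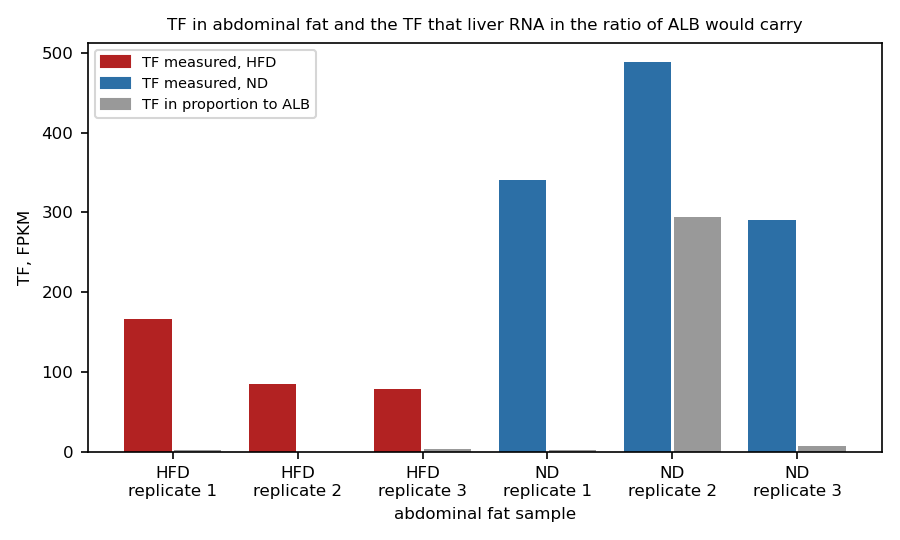
TF in FPKM in each abdominal fat sample, as measured (red for HFD, blue for ND) and as the amount that RNA of the diet's mean liver in proportion to ALB would bring (grey), as bars from 0. Grey bars are at most 7.13 FPKM except in ND replicate 2, where 294 of 489 FPKM is in proportion to ALB.

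Summed markers of macrophages and of B and plasma cells separated the diets in abdominal fat beside TF. In both lists the sums overlapped once the most abundant gene was left out. The 8 of 9 macrophage markers in the files were all above 0 FPKM in every fat sample, with CD163 at 0.05 to 0.31 FPKM. The 8 summed to 2621 to 2879 FPKM in HFD and 3086 to 3397 FPKM in ND fat, without overlap. CD74, which other immune cells also express, made up most of this sum, at 2265 to 2555 FPKM in HFD and 2695 to 3003 FPKM in ND fat, and the other 7 markers summed to 324 to 356 FPKM in HFD and 281 to 395 FPKM in ND fat, which overlapped. The 8 B and plasma cell markers summed to 1092 to 1250 FPKM in HFD and 1286 to 5028 FPKM in ND fat. The most abundant of them, the gene matched as BLB2 (LOC101747454), was at 1078 to 1233 FPKM in HFD and 1236 to 1378 FPKM in ND fat. The other 7 summed to 11.3 to 17.2 FPKM in HFD and 16.4 to 3665 FPKM in ND fat, with overlap. The highest sum was that of ND replicate 1 alone, where IGLL1 was at 3389 FPKM, against 7.56 to 43.7 FPKM in the other fat samples. The red blood cell list, of which 5 to 7 of 8 genes were above 0, summed to 787 to 1026 FPKM in HFD and 278 to 1817 FPKM in ND fat and overlapped. The part of these cells in the TF values was not tested.

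Of the other genes in abdominal fat, ACO1 alone separated the diets. It had 26.6, 27.8 and 26.1 FPKM in HFD replicates 1, 2 and 3 and 28.8, 38.7 and 29.5 FPKM in the ND replicates. The HFD samples lay close together and just below the ND samples, and ND replicate 2 was again the highest, with 5.04 FPKM in proportion to ALB. The log2 difference was -0.25 (standard error 0.13), and -0.12 (standard error 0.09) without that sample. CP had 4.90, 3.56 and 6.12 FPKM in HFD fat and 5.60, 7.42 and 4.20 FPKM in ND fat, with overlap and a log2 difference of -0.20 (standard error 0.24). It was -0.02 (standard error 0.23) without ND replicate 2, where 2.38 of the 7.42 FPKM were in proportion to ALB.

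TFRC, FTH1 and SLC40A1 had overlapping levels on both diets in abdominal fat. TFRC had 7.88, 9.05 and 9.18 FPKM in HFD fat and 7.81, 10.6 and 11.6 FPKM in ND fat (log2 difference -0.17, standard error 0.16). FTH1 had 8423, 7854 and 8324 FPKM in HFD fat and 6574, 7769 and 8784 FPKM in ND fat (log2 difference 0.10, standard error 0.24). SLC40A1 had 63.6, 87.5 and 84.1 FPKM in HFD fat and 70.0, 81.7 and 90.2 FPKM in ND fat (log2 difference -0.05, standard error 0.16). In the TFRC and SLC40A1 values replicate 1 was the lowest of both diets, and the FTH1 level of the ND birds spread more than that of the HFD birds. Of 13 alternatives, the log2 difference of FTH1 changed sign under 1 (without ND replicate 1) and that of SLC40A1 under 2 (without HFD replicate 1 and without ND replicate 3).

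For diet in abdominal fat, 0 of the 6 genes passed the threshold of 0.05 on the adjusted p, where 0.00649% of all 15412 genes tested were called (limma with Benjamini-Hochberg adjustment). Of the 6 genes, 2 separated the diets, both lower in HFD, where 13.5% of all genes did so in either direction, 5.33% higher and 8.14% lower in HFD. Without ND replicate 2 the same 2 genes separated the diets, against 25.3% of all genes in either direction, 9.95% higher and 15.3% lower in HFD.

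In liver, CP was higher and TFRC and FTH1 were lower in every HFD bird than in every ND bird. CP had 136, 103.5 and 87.4 FPKM in HFD replicates 1, 2 and 3, against 67.5, 49.9 and 38.2 FPKM in the ND replicates. The HFD mean was 2.10 times the ND mean, and the log2 difference was 1.07 (standard error 0.24), the largest of the 6 genes in liver. SLC40A1, the exporter that works with this oxidase, had 41.1, 63.9 and 58.5 FPKM in HFD liver and 41.7, 31.2 and 33.0 FPKM in ND liver. Its HFD mean was 1.54 times the ND mean (log2 difference 0.60, standard error 0.20), and the diets overlapped only through replicate 1, which was the lowest HFD and the highest ND sample.

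TFRC had 7.56, 6.75 and 8.71 FPKM in HFD liver and 12.1, 11.2 and 9.22 FPKM in ND liver, so the lowest ND sample lay just above the highest HFD sample. Its HFD mean was 0.71 times the ND mean (log2 difference -0.45, standard error 0.15). FTH1 had 5322, 3899 and 4913 FPKM in HFD liver and 7746, 6488 and 5509 FPKM in ND liver, again with the lowest ND sample just above the highest HFD sample. Its HFD mean was 0.72 times the ND mean (log2 difference -0.48, standard error 0.24). Over the 6 livers the Pearson correlation of TFRC and FTH1 on the log2 scale was 0.94, as a description over samples that share the diet difference.

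TF and ACO1 overlapped between the diets in liver. TF had 6069, 4245 and 4099 FPKM in HFD liver and 5349, 9059 and 4872 FPKM in ND liver, where ND replicate 2 stood above the rest (log2 difference -0.39, standard error 0.31). Without that liver the log2 difference was -0.11. ACO1 had 105.5, 90.0 and 107.3 FPKM in HFD liver and 120.7, 110.0 and 99.1 FPKM in ND liver (log2 difference -0.12, standard error 0.13). The highest TF of each diet was found in the same replicate number in liver and in abdominal fat, replicate 1 in HFD and replicate 2 in ND. Without the part in proportion to ALB in the mean ND liver, ND fat replicate 2 was left with 194 FPKM of TF, against 338 and 284 FPKM in ND fat replicates 1 and 3. Over the 13 liver markers its remainder was 83.4 to 300.2 FPKM with the mean ND liver, and -407 to 259 FPKM with ND liver replicate 2. Both ranges lie below ND fat replicate 1, which kept 331 to 339 FPKM over the markers with the liver of its number. ND fat replicate 2 was therefore not the highest once this part was left out. Its place against ND fat replicate 3 depended on the marker and the liver and was not settled.

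**Figure D3:**
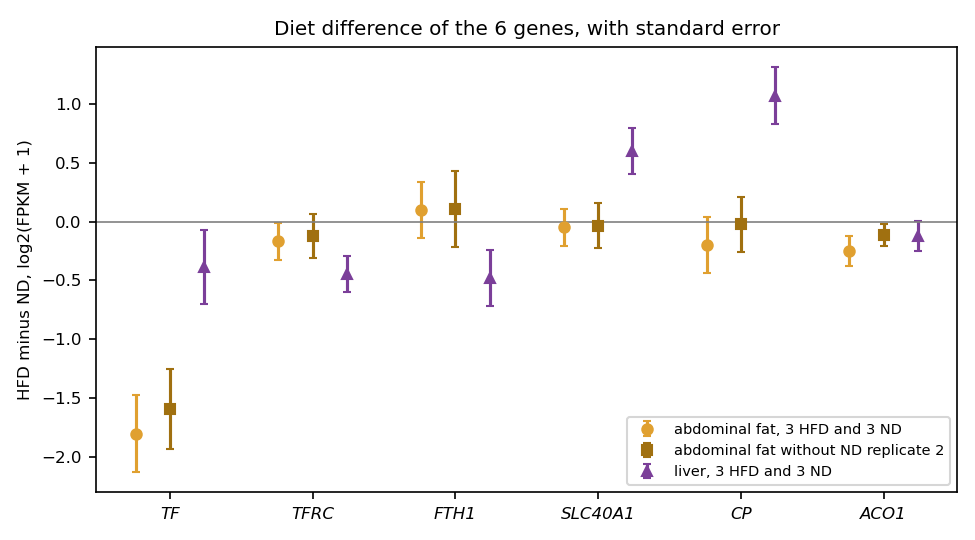
Difference between HFD and ND on log2(FPKM + 1) for each gene, as points with standard errors from limma, for abdominal fat (circles), abdominal fat without ND replicate 2 (squares) and liver (triangles). TF lies at -1.80 and -1.59 in abdominal fat, and in liver CP lies at 1.07 and SLC40A1 at 0.60 above the zero line with TFRC and FTH1 below it.

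For diet in liver, 0 of the 6 genes passed this threshold, where 0.0% of all 14510 genes tested were called (1441 genes, 9.93%, higher and 571, 3.94%, lower at an unadjusted p under 0.05). Of the 6 genes, 3 separated the diets, where 20.1% of all genes did so, 14.3% higher and 5.82% lower in HFD. The macrophage markers summed to 414 to 804 FPKM in HFD and 624 to 1272 FPKM in ND liver, the red blood cell markers to 434 to 893 FPKM in HFD and 360 to 940 FPKM in ND liver, and both overlapped. The B and plasma cell markers summed to 289 to 392 FPKM in HFD and 403 to 1080 FPKM in ND liver, without overlap. Without the most abundant of them, the gene matched as BLB2, the sums were 45.2 to 83.1 FPKM in HFD and 68.3 to 606 FPKM in ND liver and overlapped. Their part in the CP, TFRC and FTH1 values was not tested.

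The diet differences of the tissues were set against each other in a fit of all 12 samples. The diet difference in liver minus that in abdominal fat was 1.42 for TF (standard error 0.47), 1.27 for CP (0.36), 0.65 for SLC40A1 (0.27), -0.58 for FTH1 (0.31), -0.28 for TFRC (0.22) and 0.13 for ACO1 (0.18). Of the 6 genes 0 were called, where 0.00648% of all 15442 genes were called. No difference of the diet effect between liver and abdominal fat was therefore shown for any of them.

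The other genes of iron, heme and copper handling were read from 8 lists, of whose 90 genes 77 were found in the files besides the 6 described above. In abdominal fat 76 were tested and 0 were called (smallest adjusted p = 0.765, limma), and at an unadjusted p under 0.05 there were 1 higher and 2 lower in HFD, where 2.91% and 3.4% of all genes were. Their median log2 difference was 0.02, against -0.03 for all genes. In liver 74 were tested and 0 were called (smallest adjusted p = 0.288), with 7 higher and 2 lower at an unadjusted p under 0.05, where 9.93% and 3.94% of all genes were. The median was 0.05, against 0.07 for all genes. The diets did not overlap for 5 higher and 4 lower genes in abdominal fat and for 5 higher and 3 lower genes in liver, where the shares over all genes were 5.33% higher and 8.14% lower in abdominal fat and 14.3% higher and 5.82% lower in liver. The genes described next are among those with the largest differences of each list among those averaging 1 FPKM or more in that tissue, and none of them passed the test for diet.

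Among uptake and transport genes in liver, SLC39A8, a transporter of zinc, manganese and iron, was higher in every HFD bird, with 4.02, 7.22 and 5.36 FPKM in HFD and 3.73, 1.5 and 3.75 FPKM in ND liver (log2 difference 0.74, standard error 0.30, adjusted p = 0.351). MELTF, a membrane-bound relative of TF, differed by 0.48 (standard error 0.30) and MCOLN1, a lysosomal cation channel, by -0.31 (standard error 0.16). In abdominal fat STEAP3, the reductase that readies iron for leaving the endosome, differed by -0.40 (standard error 0.33), SLC11A1, the iron and manganese transporter of phagosomes, by -0.19 (0.31), and SLC11A2, the main iron importer across membranes, by 0.11 (0.11). STEAP3 was at 2.65 FPKM in ND fat replicate 2 and at 0.43 to 1.05 FPKM in the other fat samples, against 57.8 to 105 FPKM in liver. Its mean in fat reached 1 FPKM only through that sample, and its difference ranged from -0.71 to -0.03 with a sample left out.

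Of the storage list, FTL, listed under the symbol of the ferritin light chain, had 5.35, 4.48 and 6.49 FPKM in HFD liver and 4.47, 3.99 and 3.97 FPKM in ND liver (log2 difference 0.31, standard error 0.16). Its lowest HFD value, 4.48 FPKM, lay just above the highest ND value, 4.47 FPKM, and its direction was opposite to that of FTH1. In abdominal fat FTL differed by 0.25 (standard error 0.17). NCOA4, the receptor that sends ferritin to lysosomes, differed by 0.05 (0.13) in fat and -0.20 (0.23) in liver. PCBP2, an iron chaperone, differed by 0.05 (0.30) in fat and -0.06 (0.20) in liver. Of the export list, the ferroxidase HEPH differed by -0.32 (0.15) in fat and -0.14 (0.17) in liver. The heme exporter FLVCR1 differed by 0.50 (0.19) in liver, FLVCR2 by -0.12 (0.14) in fat, and the porphyrin exporter ABCG2 by -0.31 (0.11) in fat and 0.02 (0.15) in liver.

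EPAS1, the hypoxia factor HIF-2 alpha, had the smallest adjusted p of all these genes in liver. It had 266, 230 and 225 FPKM in HFD liver, above 181, 197 and 154 FPKM in ND liver (log2 difference 0.44, standard error 0.14, adjusted p = 0.288). In abdominal fat it had 140, 156 and 182 FPKM in HFD and 160, 219 and 250 FPKM in ND (log2 difference -0.38, standard error 0.19), and the difference between the tissues, 0.82, was not called (adjusted p = 0.308). BMP6, which in mammals drives hepcidin in liver, differed by -0.52 (standard error 0.26) in liver, and the inhibitor SMAD7 by 0.55 (0.23). Hepcidin itself (HAMP), HFE, HJV and TFR2 were not matched by symbol, so no levels of them are given. BMPR2, a receptor of BMP6, was lower in every HFD fat sample, at 23.4 to 25.6 FPKM in HFD and 29.7 to 35.0 FPKM in ND fat (log2 difference -0.39, standard error 0.10, adjusted p = 0.765). TMPRSS6, the liver protease that restrains hepcidin in mammals, was at 5.77 FPKM in ND fat replicate 2 and at most 0.19 FPKM in the other fat samples. Its mean in fat reached 1 FPKM only through ND fat replicate 2.

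**Figure D4:**
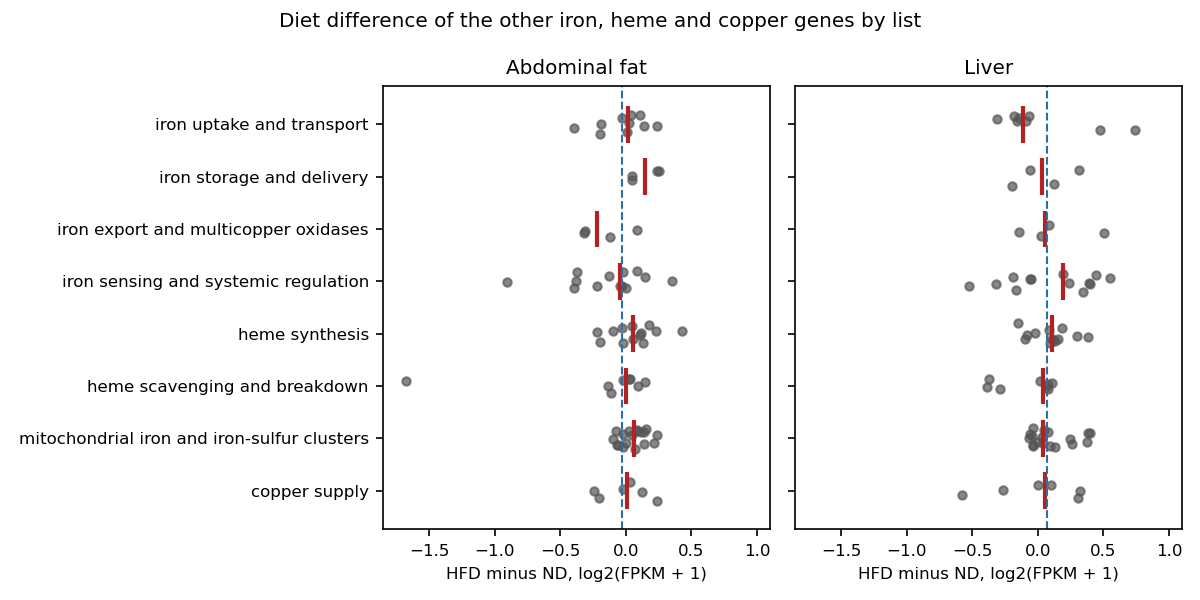
Difference between HFD and ND on log2(FPKM + 1) of each gene of 8 iron, heme and copper lists (grey points), with the median of each list (red bar) and the median of all genes tested (dashed blue line), in abdominal fat and in liver. The 76 points for abdominal fat and the 74 points for liver lie around the medians of all genes, -0.03 and 0.07.

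Of the heme and cluster genes 0 were called for diet in either tissue. In liver ALAS1, the first enzyme of heme synthesis, differed by 0.39 (standard error 0.26), the transporters ABCB10 and SLC25A38 by 0.30 (0.19) and 0.18 (0.19). In abdominal fat SLC25A39, a mitochondrial carrier, was higher in every HFD sample (log2 difference 0.43, standard error 0.16, adjusted p = 0.765), ALAD, the second enzyme of the pathway, differed by 0.23 (0.19) and ABCB10 by -0.22 (0.11). The heme-binding HEBP1 differed by -0.39 (0.16) and LRP1, a receptor of the hemopexin-heme complex, by -0.29 (0.18) in liver. Hemopexin itself, HPX, differed by -0.38 (0.26) in liver and by -1.68 (1.46) in fat, where ND replicate 2 had 279 FPKM and the other samples 1.51 to 42.7 FPKM. In fat HEBP1 differed by 0.14 (0.17) and the biliverdin reductase BLVRA by -0.13 (0.48).

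Of the cluster assembly genes in liver, the desulfurase NFS1 was higher in every HFD bird (log2 difference 0.37, standard error 0.12, adjusted p = 0.290), and the chaperone HSPA9 differed by 0.40 (0.17). In fat BOLA3 and HSCB were higher in every HFD sample, by 0.24 (0.11) and 0.22 (0.11). Of the copper genes in liver, which supply the metal of CP, SLC31A2 was lower in every HFD bird, with 2.05, 1.63 and 1.87 FPKM in HFD and 2.58, 4.40 and 2.96 FPKM in ND (log2 difference -0.58, standard error 0.19, adjusted p = 0.296). ATP7B, the pump that loads copper into CP, differed by 0.32 (0.23) and COMMD1 by 0.30 (0.19). In fat the importer SLC31A1 differed by -0.25 (0.22), COMMD1 by 0.24 (0.12) and the chaperone ATOX1 by 0.12 (0.12).

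TF and CP are acute phase proteins of birds, and 14 genes of an acute phase list were compared, of which HPX also stands in the heme list. The list was not split into proteins that rise and proteins that fall in an acute phase, so its median cannot show such a state. In liver 0 of the 14 were called for diet (smallest adjusted p = 0.383, limma) and 0 had an unadjusted p under 0.05, with a median log2 difference of 0.19 against 0.07 for all genes. The fibrinogen chains FGB and FGG differed by 0.56 (standard error 0.29) and 0.58 (0.30). The gene matched as SAA by its RefSeq symbol carries the symbol HPS5 in the deposited values, so its identity rests on that match. It had 134, 67.2 and 138 FPKM in HFD liver and 31.1, 283 and 16.6 FPKM in ND liver (log2 difference 1.00, standard error 0.94). ND liver replicate 2, the sample with the most TF, also had the most SAA, C3 (3939 FPKM) and HPX (9956 FPKM). Its ORM1 (3291 FPKM) was the highest of the ND livers. Its PIT54 (1560 FPKM) and FGA (2484 FPKM) were not, with more in ND liver replicate 1 (1819 and 2914 FPKM). Both were lower in ND liver replicate 3 (1363 and 1754 FPKM). In ND liver replicate 2, FGB (2534 FPKM) and FGG (1889 FPKM) were below those of every HFD liver. However, ND liver replicate 3, with the least TF of its diet, had less of both (2240 and 1840 FPKM). ALB in ND liver replicate 2 (43988 FPKM) was the lowest of all livers. HFD liver replicate 1, with the most TF of its diet, also had the most ORM1, FGB, FGG, C3 and HPX of its diet. It did not have the most SAA, AHSG or TTR. Whether these genes and TF change together was not tested. In abdominal fat 0 of the 14 were called and the median was -2.29, with ALB at -3.79 (1.97), AHSG at -2.79 (1.53) and FGG at -2.63 (1.5), which are also liver markers and were high in ND replicate 2.

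Between the tissues, 24 of the 76 other iron, heme and copper genes tested rose and 32 fell in liver against fat in HFD birds, and 22 rose and 25 fell in ND birds (limma). Higher and lower calls made up 14.9% and 54.6% of all genes in HFD and 13.0% and 55.6% in ND birds. The median of the list was -0.24 in HFD and -0.22 in ND birds, against -0.47 and -0.58 for all genes. Genes higher in liver on both diets, here with their log2 differences in HFD and then ND birds, included TMPRSS6 (7.41 and 6.67), STEAP3 (5.45 and 5.19), MELTF (3.77 and 3.10), ATP7B (3.66 and 3.13) and the copper importer SLC31A1 (2.86 and 2.51). So did HPX (9.00 and 7.70), the heme oxygenase HMOX1 (2.78 and 2.70), FDX1 (1.98 and 1.79), FDXR (1.98 and 1.86) and the heme enzyme CPOX (1.38 and 1.40). Genes lower in liver on both diets included ID1, a target of BMP signals (-2.93 and -2.99), FLVCR2 (-2.56 and -2.77) and PCBP2 (-2.67 and -2.56). NCOA4 was also lower (-0.85 and -0.60), and its calls were lost with quantile normalization. Of the 14 acute phase genes 11 were higher in liver on both diets, with ALB (12.42 and 8.50) and AHSG (11.13 and 8.32) at the top. The ND differences include ND fat replicate 2, which carried liver transcripts. With a sample left out, they ranged from 7.08 to 10.55 for ALB and 7.15 to 10.19 for AHSG. For HPX the range was 6.96 to 9.09, and for TMPRSS6 6.21 to 7.53.

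The genes whose levels went most alike with each member were taken by the Pearson correlation of log2(FPKM + 1) over the 12 samples, after each tissue's mean had been subtracted, among 10570 genes averaging 1 FPKM or more in both tissues. The samples share tissue, diet and library, and with so many genes high values occur for any gene, so these are descriptions. For TF they were TRIM24 (0.92), HSD11B1b (0.86) and NLRP3 (0.84), for TFRC PLXNA2 (0.89), TLN1 (0.84) and LPPR3 (0.83), and for FTH1 MBOAT7 (0.87), ARHGEF37 (0.86) and MRPL4 (0.85). For SLC40A1 they were ERCC3 (0.94), MIB1 (0.94) and HYOU1 (0.92), for CP TAAR1 (0.97), WWP1 (0.90) and PLEKHF1 (0.88), and for ACO1 TTYH3 (0.89), PHGDH (0.86) and PIGR (0.86). Among the members themselves, TFRC and FTH1 went most alike (0.82), then TF and ACO1 (0.67), and SLC40A1 and FTH1 least (-0.50). The samples include ND fat replicate 2, where 60.2% of TF and 13.0% of ACO1 were in proportion to ALB. The part of that sample in these correlations was not tested.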

How the data were processed

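RNA of liver and abdominal fat was sequenced on the BGISEQ-500 platform. The authors deposited 1 FPKM value per gene and sample, written to 2 decimals, with NCBI gene symbols and without counts. HISAT2 2.0.4, Bowtie2 2.2.5 and RSEM 1.2.12 are named in the submitters' processing notes, and the genome build is not given in the sources used here, so no coordinates are given. Samples were grouped from their labels. The paper describes both tissues as collected from 3 chickens of each diet. The labels do not name the birds, so which liver and fat sample share a bird is not given. The p-values measure only the spread between these samples.

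Values were transformed as log2(FPKM + 1), which understates the change of low genes. Genes averaging 0.1 FPKM or more in the samples of a fit were tested with limma 3.58.1 (R 4.3.3, trended eBayes, two-sided, Benjamini-Hochberg) in each of 5 comparisons, with 0.05 as the threshold of the adjusted p. The fit was also run on simulated independent samples with known changes. These held neither shared birds nor liver transcripts in ND fat replicate 2, and nothing is concluded from them here. The members and lists were chosen with earlier results of these data known. List genes were matched by file symbol or by the RefSeq symbol of the same gene identifier (MELTF, NFS1 and SAA carry other symbols in the files), and genes were named by the size of their log2 difference within each list, with at least 1 FPKM for diet; some genes that this rule names are not reported here. The acute phase genes C3, ORM1, PIT54, FGA and TTR were named outside this rule. Same-numbered samples of the 2 diets did not deviate together (correlation across genes -0.14 to 0.07). Liver and fat of the same number did in HFD birds (0.22 to 0.30, against -0.21 to -0.06 for unlike numbers), as the correlations alone show. In ND birds they did for replicates 1 and 3 (0.27 and 0.25) and less so for replicate 2 (0.08), whose fat sample carried liver transcripts. Unlike numbers of ND birds gave -0.22 to -0.007. The main fits treated the samples as independent, so the tissue differences and the interaction leave out that both tissues came from the same birds. With the replicate block the standard error of the interaction was 0.19 against 0.47 for TF and 0.25 against 0.22 for TFRC. The replicate number was a block only as an alternative, beside another pseudocount, other filters, quantile normalization, TPM scaling (each sample scaled to one FPKM sum), a fit of all samples and leaving out each sample.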

Additional observations from a re-analysis of the deposited data

How the results depend on the processing

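The calls for diet across all genes depended on the processing, and 0 of the 6 iron handling genes were called for diet in either tissue, or in the interaction, under any alternative run. In abdominal fat 1 gene was called, 2 with a pseudocount of 0.1 and in the fit of all 12 samples, 0 with the replicate block, and 0 to 4 when a sample was left out (4 without ND fat replicate 2, and 0 without HFD fat replicate 2, ND fat replicate 1 or ND fat replicate 3). In liver 0 genes were called, 4 with a pseudocount of 0.1, 6 with a mean of at least 1 FPKM, 7 with TPM scaling (added after seeing the data), 111 in the fit of all 12 samples, and 0 to 1 when a sample was left out (1 without ND liver replicate 1). The interaction gave 1 gene, 2 without a filter on low values, 0 with the replicate block and 0 to 6 when a sample was left out (each of the 12 samples moved it, 6 without ND fat replicate 2). The replicate block changed no call of a member, also between tissues, where liver and fat samples of the same number deviated together, in ND birds least for replicate 2. The number of genes called between tissues stayed within 1.5 times, 9998 to 10321 in HFD and 9399 to 10128 in ND birds with a sample left out. Their split moved: quantile normalization called 4612 genes higher and 4938 lower in liver in HFD birds, against 2306 and 8425, and 4132 and 4471 in ND birds, against 1998 and 8545.

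The TF difference in abdominal fat ranged from -2.14 to -1.59 and the CP difference in liver from 0.87 to 1.28 over 13 alternatives each. Small uncalled differences of list genes changed sign when a sample was left out. In abdominal fat they ranged from -0.541 to 0.0397 for SLC11A1, -0.217 to 0.305 for PCBP2, -0.0315 to 0.142 for NCOA4, -0.0118 to 0.316 for HEBP1 and -0.705 to 0.27 for BLVRA. In liver they ranged from -0.237 to 0.0525 for PCBP2, -0.229 to 0.0074 for HEPH, -0.0838 to 0.142 for ABCG2 (-0.0287 with quantile normalization) and -0.0032 to 0.276 for SLC25A38. The cause was not tested.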
